A study of Arabidopsis thaliana with 30 samples.

Results

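The core genes of the circadian clock of Arabidopsis thaliana were followed through 30 RNA sequencing libraries from roots. The 10 genes were taken by locus code: CCA1 (AT2G46830), LHY (AT1G01060), RVE1 (AT5G17300), PRR7 (AT5G02810), PRR5 (AT5G24470), TOC1 (AT5G61380), ELF3 (AT2G25930), ELF4 (AT2G40080), LUX (AT3G46640) and GI (AT1G22770). The list names loci and sets no threshold on measured values, and all 10 were found in each table, among 39542 distinct gene identifiers over all files. They were measured in 10 groups of 3 libraries.

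All seedlings were 5 days old, in the Col-0 background or a mutant, and had grown at 23 °C on medium with 1% sucrose under 16 h of light and 8 h of dark. The first set compared dissected whole root meristems of a line labelled as the pear sextuple mutant with wild-type Col-0, both without any inducing agent. PEAR proteins are Dof transcription factors of the early phloem, and the labels do not list the mutated genes. The second set used meristems of Col-0 plants carrying pWOL(XVE)::ZAT14-like-TURQ or pWOL(XVE)::ZAT14-TURQ, in which estradiol turns on a fluorescently tagged zinc finger protein from a promoter active in the root vasculature. These plants received 5 µM estradiol for 10 h or 14 h, or DMSO, the solvent, for a time the labels do not give. The third set used protoplasts from roots of plants carrying pCALS7::H2B-RFP together with pNAC086(XVE)::PLT2-3YFP, in which phloem promoters drive a red nuclear reporter and an inducible PLT2, a transcription factor of the meristem. Cells kept in DMSO were sorted for RFP alone, whereas cells given 10 µM estradiol for 6 h were sorted for both RFP and YFP, so induction and sorting gate cannot be told apart.

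The plant clock is a loop of repressors that are expressed one after another through the day. The MYB-like factors CCA1 and LHY peak around dawn and repress the evening genes, the PRR proteins follow through the day and repress CCA1 and LHY, and in the evening ELF3, ELF4 and LUX form a repressor called the evening complex. Roots hold a clock that takes cues from the shoot and from light, so the level of each of these genes in a sample depends on the hour at which it was taken. No hour of harvest is given in the labels, and no line without a transgene received estradiol. Induction, time since transfer and hour of day therefore cannot be told apart in any comparison of estradiol with DMSO or of 14 h with 10 h. Nor can genotype and hour of day be told apart between the mutant and Col-0.

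The promoters of these genes carry short elements known from work on the clock. The windows of the G-box and of the evening element are shown because these are the elements best known from dawn and evening genes. Within 500 bases before the annotated start, on either strand, the G-box CACGTG was present in 5 of the 10 members and in 9.35% of 27431 protein-coding genes. These 5 windows of the TAIR10.1 build run 5′ to 3′ along the gene, with the element in capitals. The CCA1 window lay at chr2:19245378-19245423 (plus strand), LHY at chr1:37926-37971 (minus) and RVE1 at chr5:5693078-5693123 (minus). PRR7 lay at chr5:642206-642251 (minus) and LUX at chr3:17182829-17182874 (plus). None of the 5 overlapped an annotated protein-coding gene, the only class checked.
CCA1 G-box: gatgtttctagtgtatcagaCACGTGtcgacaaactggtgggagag
LHY G-box: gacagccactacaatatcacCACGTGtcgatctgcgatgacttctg
RVE1 G-box: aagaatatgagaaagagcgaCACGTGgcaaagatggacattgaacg
PRR7 G-box: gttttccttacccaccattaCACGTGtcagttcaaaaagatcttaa
LUX G-box: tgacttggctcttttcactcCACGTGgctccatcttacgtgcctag

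The evening element AAAATATCT, to which CCA1, LHY and RVE proteins are known to bind, was present in 3 of the 10 members and in 4.44% of all promoters of the same length. PRR5 held 2 copies, at chr5:8358810-8358858 and chr5:8358705-8358753 (minus strand). TOC1 held 1 at chr5:24674792-24674840 and LUX held 1 at chr3:17182969-17183017 (both plus strand). Capitals mark the element, which reads AGATATTTT where it lies on the opposite strand. A match of letters is a description of the window and not evidence of binding.
PRR5 evening element, farther from the start: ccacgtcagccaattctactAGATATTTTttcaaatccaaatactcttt
PRR5 evening element, nearer to the start: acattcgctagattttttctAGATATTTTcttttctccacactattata
TOC1 evening element: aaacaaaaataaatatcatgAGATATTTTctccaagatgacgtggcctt
LUX evening element: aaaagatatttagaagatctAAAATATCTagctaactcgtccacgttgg
The related CCA1-binding site AAAAATCT was found in LHY and PRR5, and in 12.5% of all promoters. The letters GATTCG, known as a LUX-binding site, were found in TOC1 and in LUX itself, and in 15.4% of all promoters. A second form of that site, GATACG, was found in ELF3 and ELF4, and in 8.76% of all promoters.

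In TAIR10.1, CCA1 spans chr2:19245591-19248915 on the plus strand and LHY spans chr1:33365-37871 on the minus strand. RVE1 lies at chr5:5690225-5692992, PRR7 at chr5:637681-642030 and PRR5 at chr5:8356204-8358546, all on the minus strand. TOC1 lies at chr5:24674963-24678550, ELF3 at chr2:11058944-11063324, LUX at chr3:17183042-17186959 and GI at chr1:8061751-8067790, all on the plus strand. ELF4, the shortest of the 10, has a single exon at chr2:16734294-16734953 on the minus strand.

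Depth, estimated from the steps between low FPKM values, was, in units of 1e6 reads, 17.7 to 25.8 in the mutant set and 18.0 to 26.5 in the ZAT set, and the sorted-cell libraries held 31426740 to 44837397 counts. The estimate is the less certain in the mutant set, where 40.6% to 44.0% of low values fell on whole reads. In the ZAT set 78.2% to 81.1% did. The induced genes followed their labels. ZAT14-like averaged 5.98 ± 0.57 FPKM (SD, n = 3) in its DMSO libraries, 54.9 ± 5.97 after 10 h and 71.4 ± 10.6 after 14 h. ZAT14 averaged 15.2 ± 1.12, 45.4 ± 5.39 and 68.2 ± 3.89 in its own line. With DMSO, ZAT14-like averaged only 0.68 ± 0.28 FPKM in the ZAT14 line, so it was already higher in its own line (log2 difference 2.07, adjusted p = 7.45e-08, limma). ZAT14 with DMSO averaged 8.89 ± 0.65 FPKM in the ZAT14-like line, a difference that did not pass (-0.71, adjusted p = 0.0769, limma). Of 6 Dof genes of the PEAR group, OBP2, PEAR1, PEAR2 and DOF6 were lower and TMO6 and HCA2 were higher in the libraries labelled as the mutant. The 6 green tissue markers summed to between 2.89 and 15.0 FPKM in every meristem library, with LHCB2.2 at 0 throughout. Sieve element markers were present in the sorted cells, at 4227 to 11512 CPM in sum. Whether libraries of one group are separate cultures is not stated in the labels, so the p-values reflect only differences among libraries, which may be technical. In bulk meristems, fewer cells that express a gene and less RNA per cell cannot be told apart.

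Levels of the 10 genes differed by set. In all 6 ZAT groups LHY was the most abundant member per length, at 31.5 to 60.5 FPKM on average. CCA1 came second in the DMSO and 10 h groups and after LHY, ELF3 and GI at 14 h. PRR5 or PRR7 came last. In ZAT14-like DMSO meristems LHY lay above CCA1 and CCA1 above ELF3 with no overlap of libraries, while ELF3 and GI overlapped. The order in the mutant set was led by ELF4, LUX and TOC1, and ended with CCA1 and LHY below 2 FPKM in each of its 6 libraries. In Col-0, ELF4 overlapped LUX, LUX overlapped TOC1 and TOC1 overlapped GI, whereas in the mutant ELF4, LUX and TOC1 were separate from one another and from the rest. In sorted cells TOC1 led and CCA1 and LHY were last in CPM per kilobase. TOC1 overlapped the next gene in both groups, which was LUX with DMSO and PRR7 with estradiol. With estradiol ELF4 overlapped CCA1 and CCA1 overlapped LHY, whereas with DMSO CCA1 and LHY were separate from each other and from the rest. The tables were normalized separately and no test was made across them.

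The difference between induction times was read from 14 h against 10 h, where the group means of each line came from its own libraries. The variance was estimated from all 18 ZAT libraries in a shared fit, so the p-values of the lines are not independent. In both lines 8 of the 10 members changed, and all 8 were the same genes with the same direction. CCA1, RVE1, PRR5, TOC1, ELF3, ELF4 and LUX were lower at 14 h, and PRR7 was higher. Among all 17157 genes tested, 8.66% were called in the ZAT14-like line (4.93% lower, 3.72% higher) and 5.03% in the ZAT14 line (2.63% lower, 2.40% higher), at an adjusted p under 0.05 in limma with Benjamini-Hochberg adjustment. The median log2 difference over the members was -0.66 in the ZAT14-like line and -0.58 in the ZAT14 line, against -0.017 and -0.0029 over all genes tested. Fold changes here and below are on the log2(FPKM + 1) scale, which understates the change of low genes.

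RVE1, a morning MYB-like factor that links the clock to auxin synthesis, moved most. In the ZAT14-like line it stood at 4.00, 6.61 and 4.07 FPKM with DMSO, at 10.3, 10.8 and 9.12 at 10 h, and at 1.53, 1.65 and 1.46 at 14 h. The ZAT14 libraries stood at 3.75, 9.33 and 4.93 with DMSO, at 11.7, 10.3 and 12.7 at 10 h, and at 1.83, 1.65 and 1.91 at 14 h. In both lines the 10 h libraries were the highest and the 14 h libraries the lowest, with no overlap between any of the 3 groups. The log2 change from 10 h to 14 h was -2.12 (95% interval -2.56 to -1.67, adjusted p = 2.24e-05, limma) in the ZAT14-like line and -2.16 (-2.61 to -1.72, adjusted p = 2.75e-05, limma) in the ZAT14 line.

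PRR5, a daytime pseudo-response regulator that represses CCA1 and LHY, had the same pattern at a lower level. ZAT14-like libraries gave 0.987, 1.5 and 1.55 FPKM with DMSO, 2.23, 4.05 and 3.32 at 10 h, and 0.609, 0.774 and 0.732 at 14 h. ZAT14 libraries gave 1.54, 1.84 and 1.07, then 3.19, 2.89 and 3.53, then 0.600, 0.407 and 0.682. The 10 h group again lay above DMSO and the 14 h group below it without overlap. From 10 h to 14 h PRR5 fell by 1.28 (adjusted p = 0.000169) and 1.43 (adjusted p = 8.37e-05) on the log2 scale in limma.

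PRR7, an earlier member of the same family, went the other way. It measured 4.61, 1.51 and 2.55 FPKM at 10 h and 6.40, 7.65 and 6.53 at 14 h in ZAT14-like meristems, and 1.60, 0.922 and 1.61 against 6.00, 6.78 and 7.18 in the ZAT14 line. The 14 h libraries were all above the 10 h libraries of their line. DMSO libraries of both lines lay between 2.60 and 5.22 FPKM, so that they overlapped the ZAT14-like 10 h group but not the ZAT14 10 h group. The log2 rise was 1.09 (adjusted p = 0.00875) and 1.70 (adjusted p = 0.000561) in limma.

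In ZAT14-like meristems CCA1 measured 42.1, 21.1 and 36.4 FPKM at 10 h and 13.3, 14.3 and 8.69 at 14 h. ZAT14 meristems gave 29.7, 18.1 and 31.1 at 10 h and 14.3, 12.0 and 9.78 at 14 h. DMSO libraries held 28.6 to 39.2 FPKM over both lines. The 14 h groups were below every 10 h and DMSO library, and the 10 h library numbered 3 was the lowest of its group in both lines. CCA1 fell by 1.36 (adjusted p = 0.00272) and 1.04 (adjusted p = 0.0177) on the log2 scale in limma.

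LHY, the close relative of CCA1, measured 57.4, 34.0 and 52.7 FPKM at 10 h and 33.9, 38.3 and 22.3 at 14 h in ZAT14-like meristems. For ZAT14 the values were 47.5, 33.7 and 51.3, then 38.1, 32.9 and 23.9. The groups overlapped in both lines through the low 10 h library numbered 3, and neither difference passed (log2 difference -0.59, adjusted p = 0.0984, and -0.47, adjusted p = 0.252, limma). Against DMSO, where the libraries held 54.7 to 62.8 FPKM, LHY was lower at 14 h in both lines.

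**Figure D1:**
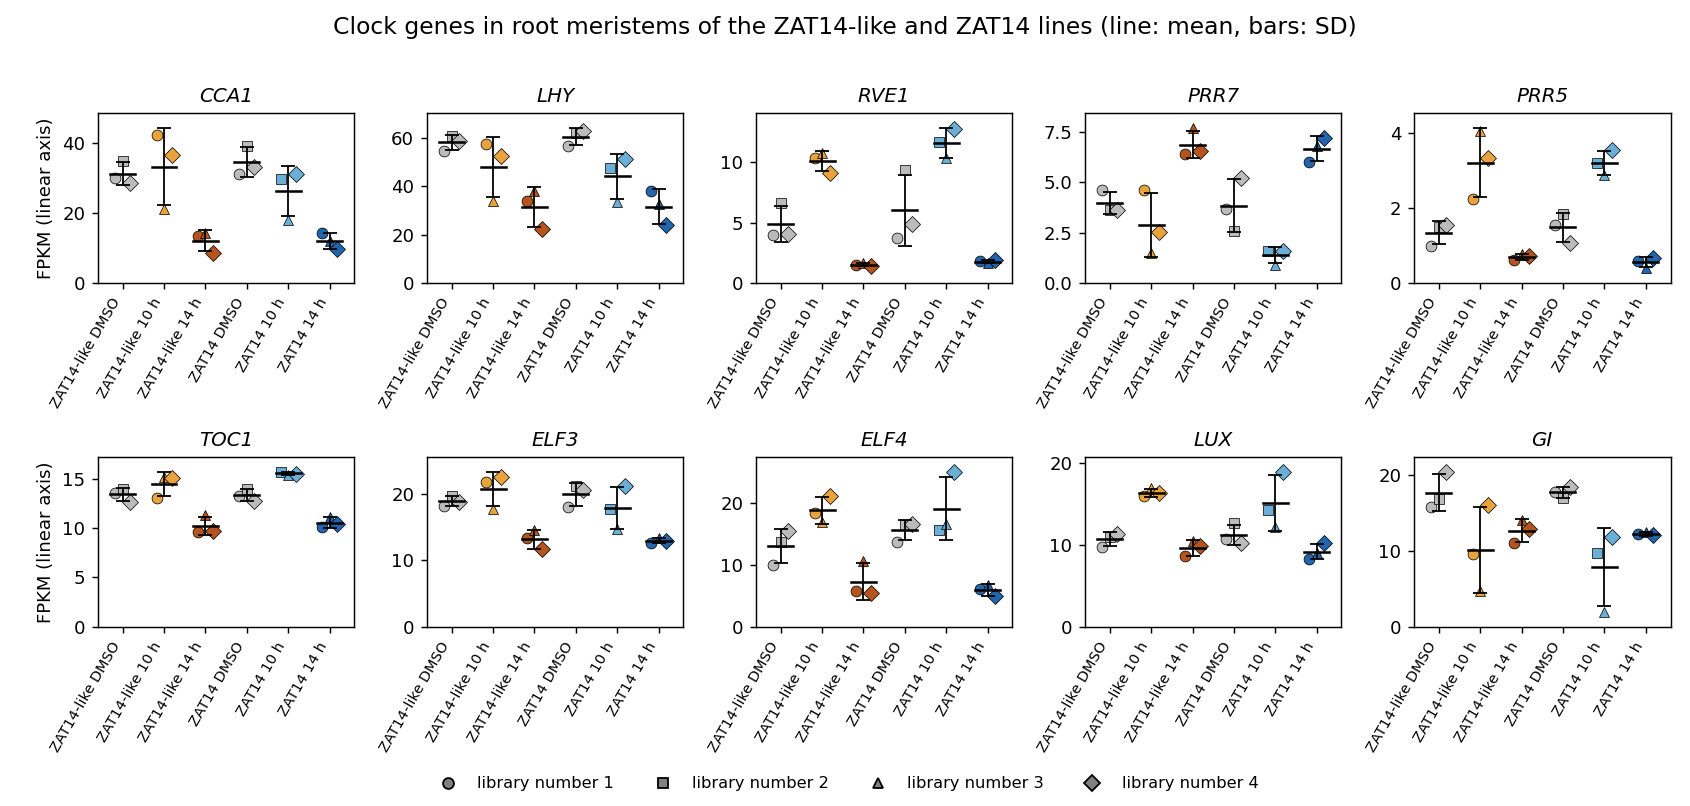
Expression of the 10 clock genes in the 18 ZAT libraries, in FPKM on linear axes, with each library as a point shaped by its number, the line at the group mean and bars of 1 SD (n = 3). RVE1 and PRR5 peak in the 10 h groups, and CCA1 is lowest in the 14 h groups, where no library exceeds 14.3 FPKM.

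The evening complex genes ELF4, LUX and ELF3 were all lower at 14 h than at 10 h. ELF4, a small protein that binds ELF3, measured 18.4, 16.9 and 21.1 FPKM at 10 h and 5.77, 10.7 and 5.51 at 14 h in ZAT14-like meristems. ZAT14 libraries held 15.6, 16.6 and 24.9 at 10 h and 6.03, 6.79 and 4.93 at 14 h. No 14 h library reached any 10 h library, and the log2 falls were -1.30 (adjusted p = 0.00163) and -1.52 (adjusted p = 0.000614) in limma. LUX, the DNA-binding member, measured 15.9, 16.9 and 16.3 against 8.59, 10.4 and 9.81 FPKM, and 14.3, 12.2 and 18.9 against 8.33, 9.02 and 10.2. Its groups were apart in both lines, with log2 changes of -0.71 (adjusted p = 0.00233) and -0.65 (adjusted p = 0.00595). ELF3, the scaffold that binds both ELF4 and LUX, ranged from 17.8 to 22.6 FPKM at 10 h and from 11.7 to 14.5 at 14 h in ZAT14-like meristems, and from 14.8 to 21.2 and from 12.6 to 13.3 in the ZAT14 line. Its log2 changes were -0.61 (adjusted p = 0.00365) and -0.42 (adjusted p = 0.0404).

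TOC1, the evening pseudo-response regulator that represses CCA1 and LHY, varied little within groups. It measured 13, 15.2 and 15.1 FPKM at 10 h and 9.59, 11.3 and 9.70 at 14 h in ZAT14-like meristems, and 15.7, 15.4 and 15.5 against 10.1, 11.1 and 10.4 in the ZAT14 line. The groups were apart in both, with log2 changes of -0.46 (adjusted p = 0.00135) and -0.52 (adjusted p = 0.000666) in limma. GI, which stabilizes the blue light receptor ZTL, was the most variable at 10 h. Its libraries held 9.64, 4.76 and 16.1 FPKM at 10 h and 11.1, 14.1 and 12.9 at 14 h in ZAT14-like meristems, and 9.74, 2.03 and 11.9 against 12.3, 12.5 and 12.1 in the ZAT14 line. The difference passed in neither line (adjusted p = 0.539 and 0.301), and DMSO libraries held 15.8 to 20.4 FPKM.

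Calls of RVE1, PRR5, ELF4 and LUX from 10 h to 14 h held under all alternatives in both lines. Fitting the ZAT14-like 10 h and 14 h libraries alone gave 4 calls, with CCA1, PRR7, TOC1 and ELF3 at adjusted p of 0.0514 to 0.0862. For ZAT14, CCA1 was lost without the 10 h library 2 or 4 or the 14 h library 3 or 4 (adjusted p up to 0.10 over all alternatives, which is how such limits are given from here on), and ELF3 without each of those or the 14 h library 1 (up to 0.203). ELF3 there was lost under 10 of 14 alternatives, among them no filter, a fit of the compared groups only, and leaving out both DMSO libraries numbered 2. Xylem markers moved in the same comparison: their sum was 39.9 to 53.7 FPKM at 10 h and 58.2 to 76.0 at 14 h for ZAT14-like, where 2 of the 4 tested of 6 were higher, and 26.4 to 34.4 against 38.1 to 39.1 in the ZAT14 line, where 1 was higher. No xylem marker was at 0 in every library of those groups, and 1 of the 2 tested of 4 endodermis and cortex markers was higher in each line, with sums of 28.8 to 34.4 against 36.2 to 42.4 FPKM (ZAT14-like) and 31.8 to 33.8 against 38.7 to 43.5 (ZAT14, where CASP2 was at 0 in the 10 h libraries). The companion cell markers, with 1 of 2 tested, were at 1.32 to 2.06 against 2.36 to 3.64 FPKM for ZAT14-like, where the tested one was higher, and at 1.48 to 2.30 against 1.85 to 2.62 for ZAT14, where it did not pass. The shares over all genes were 3.72% higher and 4.93% lower for ZAT14-like, and 2.40% higher for ZAT14. One of 6 meristem markers was lower for ZAT14-like, with sums of 84.9 to 100.1 against 83.5 to 94.7 FPKM. The part of these shifts in the clock values was not tested.

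**Figure D2:**
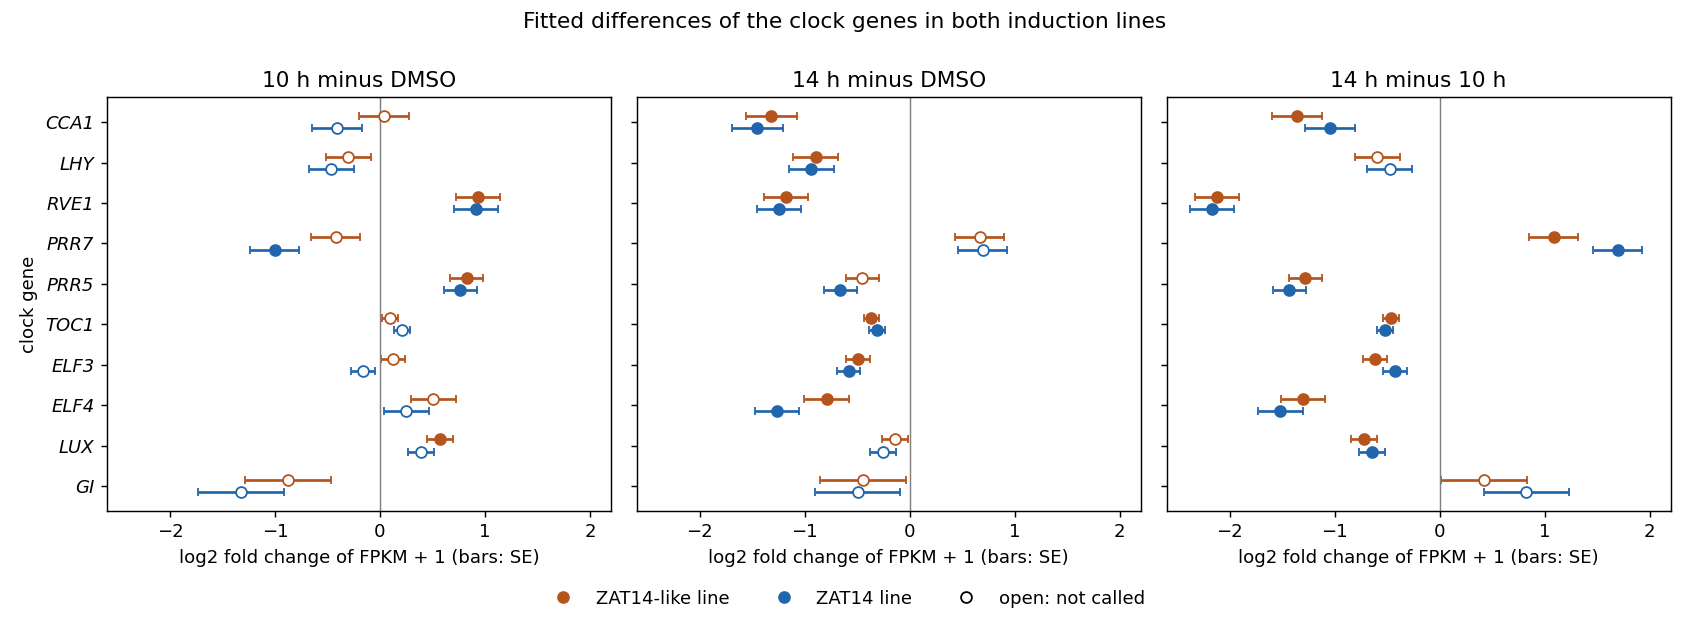
Log2 differences of the 10 clock genes on the log2(FPKM + 1) scale, for each line and time against DMSO and for 14 h against 10 h, with bars of 1 standard error and open points for members that did not pass. RVE1, PRR5, TOC1, ELF4 and LUX lie above 0 at 10 h and below it at 14 h in both lines. From 10 h to 14 h PRR7 and GI lie above 0 and the other 8 genes below it in both lines.

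Against DMSO, the early and late groups differed in opposite ways for some members. Both times of a line share its DMSO libraries, so these comparisons are not independent. At 10 h, 3 members were higher in the ZAT14-like line, where 13.8% of all genes were called and 8.96% were higher: RVE1 (log2 difference 0.94, adjusted p = 0.00927), PRR5 (0.83, adjusted p = 0.00338) and LUX (0.57, adjusted p = 0.00728). In the ZAT14 line, where 3.21% of genes were called, 1.96% higher and 1.25% lower, RVE1 (0.92, adjusted p = 0.0242) and PRR5 (0.77, adjusted p = 0.0131) were higher and PRR7 was lower (-1.0, adjusted p = 0.0275), all by limma. Without the DMSO library 4 the ZAT14 calls of RVE1, PRR5 and PRR7 at 10 h were all lost. RVE1 was also lost without the DMSO library 1 or any one 10 h library, PRR5 without the 10 h library 4, and PRR7 without the DMSO library 1 or the 10 h library 3 (adjusted p up to 0.170). Fitted with those 2 groups only, the count was 0.

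At 14 h the members that passed in the main fit were all lower than with DMSO. The ZAT14-like line had 6 such members where 12.4% of all genes were called and 4.49% were lower, and the ZAT14 line had 7 where 4.28% were called and 1.43% were lower. CCA1, LHY, RVE1, TOC1, ELF3 and ELF4 were lower in both, with log2 changes from -1.32 (CCA1, adjusted p = 0.00165) to -0.37 (TOC1, adjusted p = 0.00349) in the ZAT14-like line and from -1.45 (CCA1, adjusted p = 0.00192) to -0.31 (TOC1, adjusted p = 0.0234) in the ZAT14 line, by limma. PRR5 passed in the ZAT14 line (-0.66, adjusted p = 0.0244), and its 14 h libraries lay below DMSO without overlap in both lines. PRR7 libraries at 14 h lay above DMSO without overlap in both lines, and the differences did not pass (0.67, adjusted p = 0.0729, and 0.70, adjusted p = 0.114). Under alternatives PRR7 passed as higher in 2 of 14 (ZAT14-like, adjusted p down to 0.00541) and 1 of 14 (ZAT14, 0.0422, limma). PRR5 in the ZAT14-like line passed as lower in 1 of 13 (adjusted p = 0.0403, limma). GI libraries at 14 h lay below DMSO without overlap in both lines, as did LUX libraries in the ZAT14 line. The GI differences did not pass (-0.45, adjusted p = 0.512, and -0.50, adjusted p = 0.632), nor did that of LUX (-0.26, adjusted p = 0.3035, limma). GI passed as lower under 1 of 14 alternatives in each line (adjusted p = 0.0296 and 0.00271, limma). CCA1 and RVE1 kept their call without any one library in both lines. With library number within each line as a block, CCA1 was lost in the ZAT14-like line only (adjusted p = 0.0532, limma). RVE1 was lost in neither line with that block, and ELF3 in both. ELF4 groups in the ZAT14-like line overlapped, with 10.7 FPKM in the highest 14 h library and 10.0 in the lowest DMSO library. Its call was lost without the DMSO library 2 or 4 or the 14 h library 1 or 4 (adjusted p up to 0.135). LHY in the ZAT14-like line was lost without the DMSO library 2 or the 14 h library 4 (up to 0.174). For ZAT14, LHY was lost without the DMSO library 2 or 4 or the 14 h library 3 or 4 (up to 0.18), TOC1 without the DMSO library 1 or 2 or the 14 h library 1 or 4 (up to 0.142), and PRR5 without the DMSO library 1 or 2 or any one 14 h library (up to 0.159).

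Markers of other cell types also differed from DMSO. Xylem markers summed to 23.4 to 32.7 FPKM in ZAT14-like and 22.8 to 31.7 in ZAT14 DMSO libraries, below the sums given for 14 h. Of the 4 tested, the ZAT14-like line had 2 higher at 10 h and 3 at 14 h, and the ZAT14 line 1 and 2. The shares over all genes were 8.96% (ZAT14-like) and 1.96% (ZAT14) higher at 10 h. At 14 h, 12.4% and 4.28% of all genes were called in either direction, of which only 4.49% and 1.43% of all genes were lower. Meristem markers summed to 63.6 to 70.0 FPKM with DMSO in the ZAT14-like line, and to 67.6 to 71.2 with DMSO, 76.1 to 91.7 after 10 h and 84.5 to 88.4 after 14 h for ZAT14. Of these 6 markers, 2 were higher at each time in each line, and 1 was lower at 14 h in the ZAT14-like line. WOX5, a stem cell niche gene singled out after its values were seen, averaged 0.61 ± 0.19 FPKM in ZAT14-like DMSO libraries, 23.2 ± 5.48 after 10 h and 22.9 ± 1.28 after 14 h (SD, n = 3). At 14 h the tested companion cell marker and 1 of 4 tested epidermis and root hair markers were also higher in the ZAT14-like line. Their part in the clock values was not tested.

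The lines were compared directly by the difference of their responses, taken as the mean of 10 h and 14 h minus DMSO. The fitted differences of RVE1, PRR5, PRR7, TOC1, ELF4 and LUX lay on opposite sides of DMSO at these times in both lines. Those of CCA1 and ELF3 did so in the ZAT14-like line only. Such changes partly cancel in this mean. Whether the lines differ in the change from 10 h to 14 h was not tested. None of the 10 members passed, none had an unadjusted p under 0.05, and 0.361% of all genes were called in limma. The intervals of the difference were narrowest for TOC1, from -0.27 to 0.11 on the log2 scale, and widest for GI, from -0.81 to 1.31. For RVE1 the interval ran from -0.50 to 0.59. These intervals leave room for differences of that size. With DMSO alone, the lines also differed in none of the 10 (0 at an unadjusted p under 0.05, with 0.0991% of all genes called).

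Libraries of a group did not scatter evenly over the members, and the same counts were not made over all genes. Among the 3 ZAT14 10 h libraries, number 3 was the lowest for 9 of the 10 members and number 4 the highest for 9. The ZAT14-like 14 h library numbered 3 was the highest of its group for all 10 members. The ZAT14-like 10 h library numbered 3 was the lowest for 6 and the highest for 4. In sorted cells the DMSO library numbered 4 was the lowest for 9 in CPM by library total. After TMM scaling, LHY, RVE1, PRR7 and ELF4 were instead lowest in the DMSO library numbered 1. GI shows the widest spread, with 2.03 FPKM in ZAT14 10 h library 3 against 11.9 in library 4.

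Beyond the core, 21 other clock genes and 16 known clock outputs were listed, of which 18 and 10 were tested in the ZAT set. From 10 h to 14 h, 2 of the other clock genes were lower and none higher in each line, and they were the same 2. RVE2, a MYB-like relative of RVE1, averaged 70.6 ± 10.9 FPKM at 10 h and 6.96 ± 1.16 at 14 h in ZAT14-like meristems, and 66.2 ± 9.01 against 7.23 ± 0.80 in the ZAT14 line (SD, n = 3). Its groups lay far apart, with log2 changes of -3.17 (adjusted p = 2.7e-06) and -3.03 (adjusted p = 9.36e-06, limma). BOA, a relative of LUX, changed by -1.18 and -1.20. Of the outputs, 4 were lower and none higher in each line. Among all genes tested, 4.93% were lower in the ZAT14-like line and 2.63% in the ZAT14 line. CDF2, a repressor of flowering genes, COR28, a cold-regulated gene, and BT2 were among the 4 in both lines. The remaining one was BBX19 for ZAT14-like and GRP7, an RNA-binding protein, for ZAT14.

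The same lists were read against DMSO. Among all genes tested, 8.96% (ZAT14-like) and 1.96% (ZAT14) were higher at 10 h, and 4.49% and 1.43% were lower at 14 h. At 10 h RVE2 was higher in both lines, by 1.69 (adjusted p = 0.000433) and 1.35 (adjusted p = 0.00731), and BOA in the ZAT14-like line, by 0.69 (adjusted p = 0.00375). BT2 and COR28 were higher in both, and CDF2 in the ZAT14-like line. At 14 h RVE2 and BOA were lower in both lines, RVE2 by -1.48 (adjusted p = 0.000812) and -1.67 (adjusted p = 0.000731). BT2 was still higher in the ZAT14-like line at 14 h, by 0.80 (adjusted p = 0.00029, limma). No other listed clock gene or output passed at either time.

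The genes whose profile was nearest to 2 members over the 18 ZAT libraries were found by the root mean square difference of centred log2(FPKM + 1) values. For CCA1 the 5 nearest of 1524 candidates were RAP2.7 (0.249), AT5G41590 (0.282), LHY (0.299), ABF4 (0.320) and ABCF5 (0.323). LHY was the only member of the 10 among them. For TOC1 the 5 nearest of 12799 candidates were VAMP713 (0.0901), ACA8 (0.0915), DIN4 (0.0944), UBP4 (0.0995) and AT5G23575 (0.101). All points share the same libraries and depth, and the measure is a description.

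In the pear sextuple mutant ELF4, TOC1, LUX, PRR5, PRR7, ELF3 and RVE1 were higher than in Col-0. Of the 10 members, 8 passed the minimum of 1 FPKM in 3 libraries, and 7 of these 8 were higher and none lower. In that comparison 63.2% of 17062 genes were called, 44.6% as higher, and the median gene was 0.21 higher on the log2 scale. The median of the 8 members was 0.84, and their changes are read beside that shift of all genes. The labels give no hour of harvest for either genotype, so genotype and hour of day cannot be told apart here.

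ELF4 differed most. It measured 151, 191 and 166 FPKM in mutant libraries against 28.8, 42.8 and 83.0 in Col-0. The mutant libraries were all higher, and the Col-0 libraries were the more spread. The log2 difference was 1.82 (95% interval 1.09 to 2.55, adjusted p = 0.00131, limma).

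TOC1 measured 49.6, 52.4 and 47.1 FPKM in the mutant against 19.3, 20.1 and 24.4 in Col-0. LUX measured 53.0, 59.96 and 54.2 against 24.2, 26.8 and 29.1. PRR5 measured 21.7, 22.0 and 19.2 against 10.3, 8.87 and 11.7. Groups did not overlap for any of these 3 genes, with log2 differences of 1.19 (adjusted p = 2.77e-05), 1.03 (adjusted p = 3.17e-05) and 0.97 (adjusted p = 0.000118) in limma.

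PRR7 and ELF3 were higher by less, and GI was not. PRR7 measured 16.9, 17.1 and 14.1 FPKM against 10.0, 10.1 and 8.10, and ELF3 21.9, 21.4 and 21.5 against 13.8, 12.5 and 14.9. Both were apart in the groups, by 0.71 (adjusted p = 0.000766) and 0.62 (adjusted p = 0.000283). GI overlapped fully, at 19.6, 19.1 and 16.0 against 20.8, 17.6 and 16.3, with a log2 difference of 0.003 (95% interval -0.26 to 0.26), below the median gene. RVE1 measured 1.54, 2.00 and 2.17 against 1.36, 1.14 and 1.13. Its difference of 0.39 (adjusted p = 0.029) was lost after median-ratio rescaling and without the mutant library 3 or 4 or the Col-0 library 2 or 4 (adjusted p up to 0.127).

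The dawn genes CCA1 and LHY were too low for the main test. CCA1 stood at 0.683, 0.296 and 0.499 FPKM in mutant libraries and at 1.33, 0.936 and 0.526 in wild-type ones, and these overlapped. LHY measured 0.215, 0.208 and 0.114 against 1.00, 1.41 and 0.537, and all 3 mutant libraries were lower. Without the filter on low values LHY was lower by -0.73 (adjusted p = 0.00831) and CCA1 differed by -0.36 (adjusted p = 0.125) in limma.

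**Figure D3:**
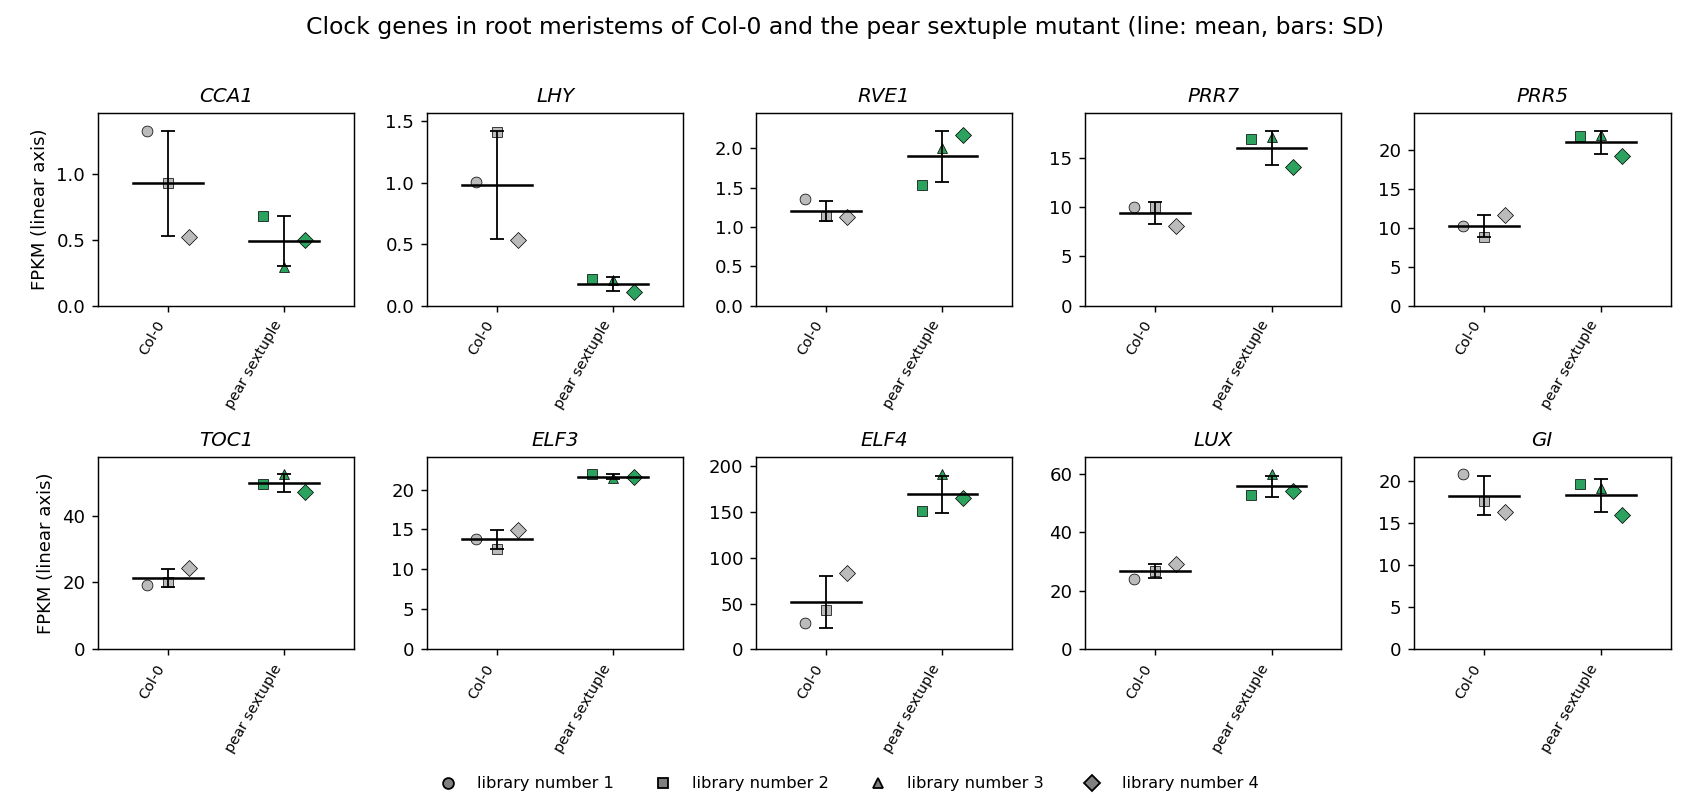
Expression of the 10 clock genes in the pear sextuple mutant and Col-0, in FPKM on linear axes, with each library as a point shaped by its number, the line at the group mean and bars of 1 SD (n = 3). ELF4, LUX, TOC1 and PRR5 lie higher in the mutant, GI overlaps, and LHY lies lower at values near or below 1 FPKM.

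Of the 21 other clock genes 20 were tested in the mutant set, and 13 were higher and 1 lower, where 63.2% of all genes were called and 44.6% were higher. The 4 with the smallest adjusted p were RVE2 (log2 difference 2.22, adjusted p = 5.24e-06), BOA (1.94, adjusted p = 1.63e-05), RVE4 (1.06, adjusted p = 0.000147) and RVE5 (0.66, adjusted p = 0.000171), all higher. Of the 16 outputs 10 were tested, with 8 higher and 1 lower. CAT3, a catalase, averaged 60.01 ± 11.5 FPKM in mutant libraries against 5.53 ± 0.53 in Col-0, and BT2 53.1 ± 9.14 against 3.83 ± 1.46 (SD, n = 3). Their log2 differences were 3.21 (adjusted p = 1.77e-06) and 3.51 (adjusted p = 6.37e-06), followed by COR27 (2.36, adjusted p = 1.44e-05) and COL2 (1.04, adjusted p = 0.000252), by limma.

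Markers of other tissues differed in the same libraries, where the share of all genes called higher was 44.6%. Root cap markers summed to 185 to 209 FPKM in the mutant against 76.4 to 93.3 in Col-0, with 3 of 4 higher, and meristem markers to 177 to 198 against 87.3 to 111, with 4 of 6 higher. Xylem markers summed to 38.0 to 49.6 FPKM against 18.1 to 23.0, with 2 of the 4 tested of 6 higher. The sum of the sieve element markers was lower, at 6.56 to 8.11 against 11.1 to 13.5 FPKM, with 2 lower and 1 higher of the 4 tested of 7, and NAC045 and SEOa were at 0 in all mutant libraries. Epidermis and root hair markers summed to 161 to 166 FPKM against 120 to 135 (3 of 5 higher), and endodermis and cortex markers to 35.5 to 40.6 against 25.4 to 31.8 (1 of the 2 tested higher). Companion cell markers summed to 1.28 to 2.15 FPKM against 1.07 to 1.97, but SUC2 and AHA3 went opposite ways. SUC2, the 1 tested, was higher, with means of 1.57 against 0.31 FPKM. AHA3 was not tested and averaged 0.017 FPKM in the mutant against 1.095 in Col-0, with no overlap of libraries. Green tissue markers summed to 10.7 to 15.0 FPKM against 7.33 to 10.3, with LHCB2.2 at 0 in both groups. The part of these shifts in the clock values was not tested.

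In the sorted cells none of the 10 members passed after PLT2 induction, in edgeR's quasi-likelihood test with Benjamini-Hochberg adjustment, where 0.657% of 24673 genes were called. PLT2 itself rose from 4.93 to 8.42 CPM with DMSO to 20090 to 70730 CPM with estradiol, as labelled. One member, LUX, had an unadjusted p under 0.05, and DESeq2 called 1 member, again LUX, among 3259 of 24673 genes.

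LUX counts were 3192, 2845 and 1884 with DMSO and 2239, 2536 and 2656 with estradiol, or 73.8, 126 and 68.8 against 47.4, 47.1 and 51.4 CPM after TMM scaling. The scaled groups did not overlap, and the DMSO library numbered 2 lay well above the others. The log2 difference was -0.88 (95% interval -1.53 to -0.24, adjusted p = 0.132, edgeR). TOC1 had 4200, 2105 and 1541 counts against 2704, 3167 and 3048, and differed by -0.50 (adjusted p = 0.327). PRR5 had 285, 217 and 160 against 423, 803 and 635, and differed by 0.71 (95% interval -0.08 to 1.51, adjusted p = 0.289, edgeR).

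Several members spread widely among the estradiol libraries. The highest library exceeded the lowest 3.59 times for ELF4, 3.45 times for RVE1, 2.62 times for PRR7 and 2.47 times for LHY, and by 1.04 to 1.99 times for the other 6, in CPM by library total. RVE1 had 421, 515 and 295 counts with DMSO and 558, 2059 and 1248 with estradiol, and PRR7 had 1703, 1134 and 1081 against 1603, 4499 and 2201. Library 2 of the estradiol group was the highest for both. CCA1 had 259, 156 and 118 against 275, 513 and 331, and LHY had 169, 112 and 118 against 436, 196 and 201. GI had 3876, 1631 and 1949 against 3349, 3461 and 3672, ELF3 had 1654, 982 and 853 against 1480, 3155 and 2225, and ELF4 had 150, 135 and 103 against 188, 56 and 195. For these 7 genes the differences lay between -0.59 (ELF4) and 0.78 (RVE1) on the log2 scale, with intervals that include 0 and reach -1.99 for ELF4 and 1.89 for RVE1. TMM scaling factors ran from 0.717 to 1.28, and the sieve element markers summed to 7486 to 11512 CPM with DMSO against 4227 to 7616 with estradiol, with 1 of 7 lower and none at 0 in all libraries. Their part in the clock values was not tested. None of the 21 other clock genes and none of the 15 tested outputs passed.

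**Figure D4:**
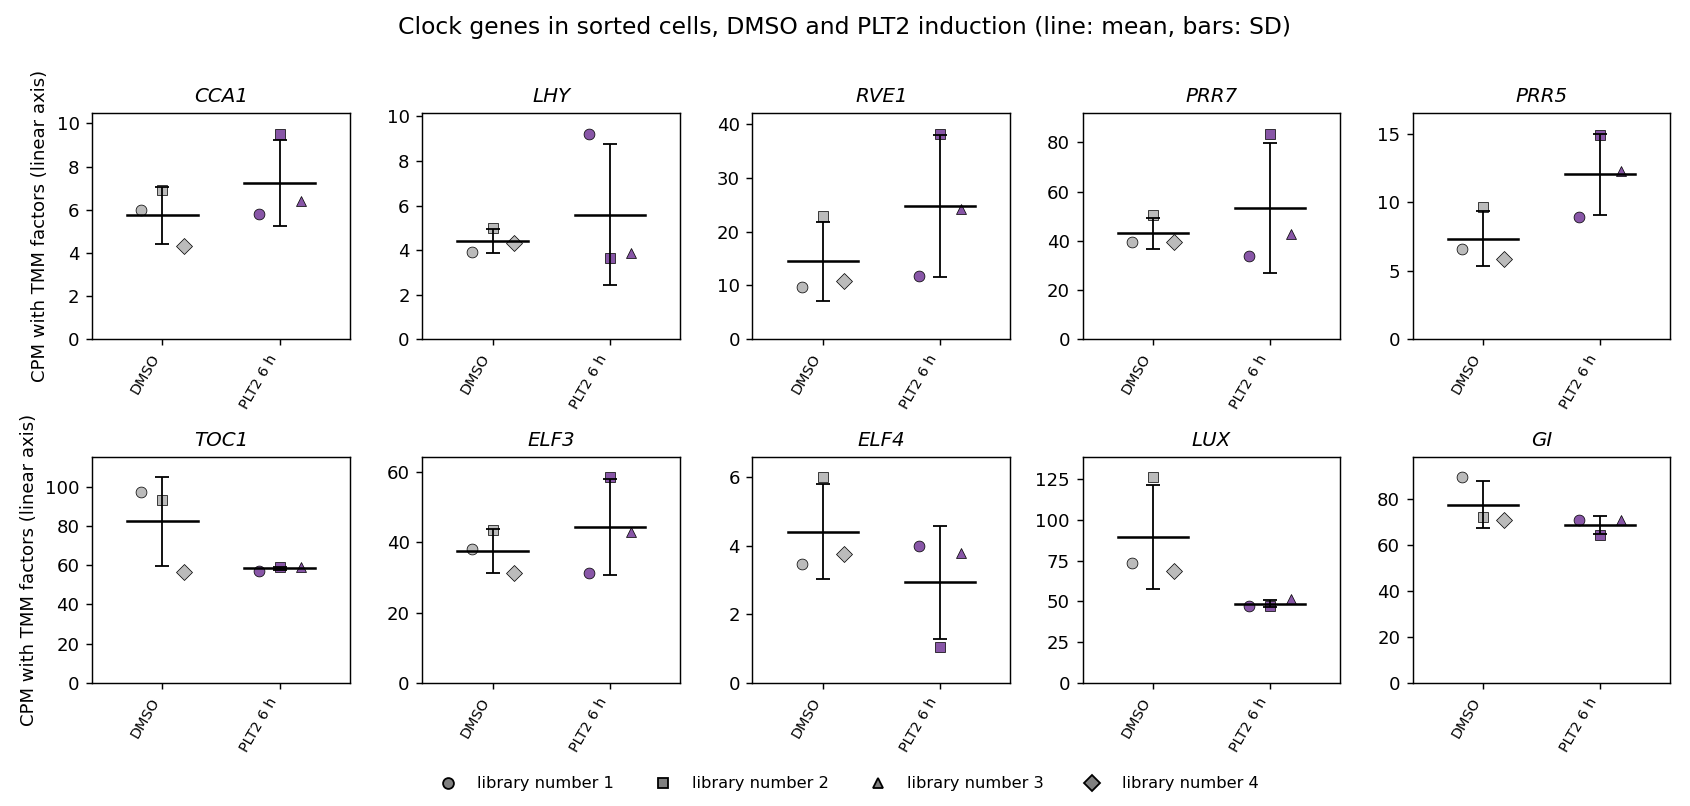
Clock genes in sorted cells, in CPM with TMM factors on linear axes, with each library as a point shaped by its number, the line at the group mean and bars of 1 SD (n = 3). LUX lies at 68.8 CPM or more in the DMSO libraries and at 51.4 CPM or less after PLT2 induction, while ELF3, RVE1 and PRR7 have wide SD bars after induction.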

How the data were processed

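The mutant and ZAT tables hold FPKM, a level per gene length and library total, as deposited by the authors. The submitters' processing notes name TopHat2 and HTSeq, with the build TAIR10. The sorted-cell files hold raw counts per gene as deposited by the authors, with Bowtie2 and featureCounts named in the same notes and PCR-amplified cDNA (18 cycles) per the labels. Versions and filters are not given in the sources used here. An FPKM value reads lower where other genes take more of the library, and PCR copies are not independent molecules.

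Samples were grouped by title. The FPKM test was limma 3.58.1 (R 4.3.3) on log2(FPKM + 1) of genes that reached 1 FPKM in 3 or more libraries per table, with the 18 ZAT libraries in one fit. Counts were tested with edgeR 4.0.16 (TMM, filterByExpr, quasi-likelihood). Tests were two-sided, adjusted by Benjamini-Hochberg over all genes tested, and called at an adjusted p under 0.05. The steps were tested on simulated data. The members and lists were chosen with earlier results of these data known. Named genes were the members, the targeted genes, all called listed genes of a comparison where at most 4 were called and otherwise the 4 with the smallest adjusted p, and the 5 profiles nearest to CCA1 and to TOC1. Depth of FPKM libraries was estimated from low values, of which 40.6% to 44.0% in the mutant set and 78.2% to 81.1% in the ZAT set were whole reads within 0.05 reads, so no counts were recovered. Coordinates and promoter windows come from TAIR10.1, which matched 31912 of 32678, 32548 of 34218 and 32835 of 33602 identifiers by locus code. Alternatives were another pseudocount (0.1), no filter, median-ratio rescaling, leaving out each library, replicate blocks, fits of the compared groups alone, DESeq2 1.42.0 and other scalings of the counts.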

Additional observations from a re-analysis of the deposited data

Results flagged for a closer look

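Each of these results was picked out because the effect at 14 h differed from the effect at 10 h by the test of the difference itself (limma, Benjamini-Hochberg over all genes). In the ZAT14-like line the log2 differences of 14 h against 10 h were -1.36 for CCA1, -2.12 for RVE1, 1.09 for PRR7, -1.28 for PRR5, -0.46 for TOC1, -0.61 for ELF3, -1.30 for ELF4 and -0.71 for LUX. In the ZAT14 line they were -1.04 for CCA1, -2.16 for RVE1, 1.70 for PRR7, -1.43 for PRR5, -0.52 for TOC1, -0.42 for ELF3, -1.52 for ELF4 and -0.65 for LUX. Hour of day, time since transfer and induction cannot be told apart in these comparisons.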

How the results depend on the processing

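Of the alternative values of single members, 1281 kept direction and side of the threshold, 82 lost a call, 13 gained one and 33 changed sign. The number of members called moved by over 1.5 times in these cases, and the cause was not tested. At 10 h against DMSO in the ZAT14 line it was 1 without the filter and 0 in a fit of the compared groups only, where the all-gene count fell from 551 to 72. At 14 h against DMSO it was 2 (ZAT14-like) and 3 (ZAT14) with the replicate block within each line, and 3 in each line without both DMSO libraries numbered 2, an alternative chosen after seeing the data. The ZAT14-like count for 14 h against 10 h was 4 in a fit of those groups only (1485 genes called became 297), and DESeq2 called 1 member in sorted cells. Leaving out each library gave 0 to 3 members for ZAT14 10 h, 4 to 6 for 14 h in each line, 6 to 8 and 8 to 9 for 14 h against 10 h (ZAT14, ZAT14-like), 3 to 4 for ZAT14-like 10 h, 6 to 7 in the mutant, and 0 to 0 elsewhere.

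In groups compared directly with each other, replicate numbers did not meet the bar for pairing, a correlation over 0.1 in each of 3 or more pairs. Deviations of same-numbered DMSO libraries of the lines correlated at -0.08, 0.48 and -0.10, and the mutant and Col-0 share only 2 numbers, at 0.25 and 0.36. The ZAT14-like 10 h and 14 h libraries correlated at -0.06, -0.09 and 0.09. Across lines, same-numbered libraries correlated at 0.17, 0.13 and 0.19 at 14 h, which meets that bar, and at 0.35 and 0.10 at 10 h. These groups enter the response difference between the lines, whose main fit had no block. Its all-gene count was 62 in the main fit and 62 with a shared block. With the replicate block the members called were 6 in the mutant, 0 in sorted cells, and, within lines, 2 at 10 h in each line, and 8 (ZAT14-like) and 6 (ZAT14) for 14 h against 10 h. The response difference stayed at 0. A shared block gave 3, 6, 2 and 5 against DMSO (ZAT14-like then ZAT14, 10 h then 14 h), 8 and 7 for 14 h against 10 h, and 0 for the lines with DMSO. With the block within lines the all-gene counts against DMSO were 603 and 736 for ZAT14-like, from 2365 and 2123, and 188 and 336 for ZAT14, from 551 and 735. They were 361 for ZAT14 14 h against 10 h, from 863, and 5 for the response difference, from 62.

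Other all-gene counts moved too. ZAT14-like 10 h gave 406 in a fit of its groups and 1027 without both DMSO libraries numbered 2, where 14 h gave 1050 and ZAT14 14 h 322. Without both 10 h libraries numbered 3, ZAT14 gave 284 at 10 h and 514 for 14 h against 10 h. The response difference gave 25 with a pseudocount of 0.1, 106 without the filter and 18 without the DMSO libraries numbered 2, and the lines with DMSO gave 17, then 11 and 10. The 162 genes called in sorted cells became 3259 in DESeq2, 92 with its size factors in edgeR, 626 without the filter, 1829 with the block and 17 in limma-voom with sample weights (added after seeing the data). Leaving out single libraries gave 1077 to 3731 and 1097 to 2071 genes for ZAT14-like at 10 h and 14 h, 150 to 520 and 343 to 748 for ZAT14, 678 to 2413 and 414 to 864 for 14 h against 10 h, 38 to 68 for the response difference and 10 to 16 with DMSO. In sorted cells the count was 1833 without DMSO library 1 and 0 without DMSO library 2.

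All values that changed sign were uncalled. GI in the mutant was -0.20 after median-ratio rescaling and -0.070 to 0.096 without single libraries. In the response difference RVE1 was -0.017 without both 10 h libraries numbered 3, -0.080 without both DMSO libraries numbered 2 and -0.28 to 0.28 without single libraries, and GI was -0.075 to 0.46. CCA1 at 10 h in the ZAT14-like line was -0.16 to 0.32. Between the lines with DMSO, PRR7 was -0.083 and LUX 0.0075 without both libraries numbered 2, and single libraries gave -0.13 to 0.27 for PRR7, -0.21 to 0.033 for PRR5, -0.022 to 0.045 for TOC1, -0.11 to 0.025 for LUX, -0.12 to 0.060 for GI and -0.44 to 0.12 for RVE1. In sorted cells they gave -0.24 to 0.018 for GI, -0.22 to 0.58 for LHY, -0.17 to 0.55 for PRR7 and -0.015 to 0.44 for ELF3.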
